A study of Bos taurus with 6 samples.

Results

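The distal ends of the cattle autosomes were taken as the last 5 Mb of each of the 29 autosomes, counted back from the largest coordinate that any library covered on that chromosome. Within these ends, CpG cytosines were grouped into 1000 bp windows on a fixed grid. A window was measured in a library that had at least 3 covered cytosines and 10 read calls in it, and it was kept when 2 or more libraries of each group measured it. By this rule, which uses position and coverage and no methylation value, 14089 distal windows were kept out of 59286 autosomal windows. They were 24.1% of the 58528 distal windows in which any library covered a cytosine. The other kept windows were 41178 in the chromosome interiors, over 5 Mb from either end, and 4019 in the first 5 Mb of the low-coordinate (proximal) ends.

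DNA from the blood of 6 adult male cattle was profiled by reduced representation bisulfite sequencing, which cuts genomic DNA with MspI and reads cytosine methylation in the selected fragments after bisulfite conversion. Among the Creole cattle, Creole 1 was of the Sanmartinero breed, while Creole 2 and Creole 3 were both Costeno con Cuernos. Spanish 1 was a Retinta, Spanish 2 an Asturiana de los Valles and Spanish 3 a Lidia, so the groups hold 5 breeds in all. No treatment or genotype beyond the breed is given in the labels. The DNA of the Creole group was extracted with another kit than that of the Spanish group, and the lane mark in the names of the deposited files differs between the groups in the same way, so neither can be told apart from the group. Each animal gave 1 library.

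Cattle autosomes are acrocentric: the centromere lies at the low-coordinate end, and the high-coordinate end is the telomeric end of the single long arm. Subtelomeric DNA of mammals is as a rule rich in genes, in G and C, and in CpG sites, and recombines often in males. Methylation of a CpG is copied at replication by maintenance methyltransferases, and most CpGs of a somatic cell are methylated. Dense CpG clusters known as CpG islands, often at gene starts, are the usual exception. MspI cuts at the sequence CCGG, so the method samples CpG-rich DNA by design.

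The libraries held 38633007 to 80245850 autosomal read calls, of which 7496934 to 13228120 fell in the distal ends. Creole 1 stood apart, with 3391903 covered autosomal cytosines against 669467 to 1632409 in the other 5 libraries, and it measured 14036 of the distal windows, against 8528 to 13212 in the others. Creole 1 also had the fewest reads per covered distal cytosine, 17.0 against 22.4 to 55.8. The median number of calls in a measured distal window was 128 in Spanish 1 and between 241 and 316.5 in the other libraries. At the edges of covered stretches, where library preparation fills in the cut ends, the strand that can carry filled-in cytosines had 6.56% to 15.5% methylation in the distal ends, and its partner strand 74.8% to 80.9%. Intervals and limits given for single values cover counting error only, because no molecular identifiers show which PCR reads copy the same molecule. They also treat calls at neighbouring CpGs of the same read as separate, so they can be too narrow where few reads cover many CpGs.

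The distal ends held far more of the covered CpGs than their length would give. They span 145 Mb, or 5.77% of the autosome length, and held 23.2% of all covered autosomal cytosines and 23.8% of the kept windows. There were 97.2 kept windows per Mb in the distal ends, 27.7 in the proximal ends and 18.5 in the interiors. In each library, covered cytosines per Mb were 4.32 to 5.07 times the interior value, a mean difference of 2.27 ± 0.0898 on the log2 scale (SD, n = 6 libraries). The difference had the same sign in 6 of 6 libraries (exact two-sided sign-flip permutation test, p = 0.031, the smallest that 6 libraries allow). Covered cytosines in the distal ends were read less deeply than interior ones, at 0.664 to 0.903 times the interior reads per cytosine, and here too 6 of 6 libraries had the same sign (exact sign-flip permutation p = 0.031). The density of kept windows varied among chromosome ends, from 18.8 to 233.6 per Mb.

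Distal windows were more methylated than interior windows in every animal. The mean level of the measured distal windows was 67.8%, 68.0% and 67.7% for Creole 1 to 3, and 68.9%, 69.4% and 68.4% for Spanish 1 to 3. In the interiors the same libraries had means of 53.8%, 53.1%, 52.8%, 52.8%, 54.0% and 52.4%. No distal value came near an interior one, and the libraries lay within a narrow band in both. The mean difference was 15.2 ± 0.772 percentage points (SD, n = 6; 14.0 to 16.1), higher in 6 of 6 libraries (exact two-sided sign-flip permutation p = 0.031). The adjusted p was 0.0382 over the 11 comparisons of this family by the Benjamini-Hochberg method, a value that all 9 exact tests across the 6 libraries shared. With the positions that can be filled in removed, the difference was 15.99 points. Without Creole 1, with windows chosen anew, it was 16.3 points, and leaving out each library in turn gave 15.5 to 16.9 points. In these cases 5 libraries cannot give an exact p under 0.0625. The size of the difference varied with the coverage rule, from 14.5 points with a minimum of 5 calls to 17.6 points in windows measured in all 6 libraries. Blood is a mixture of leukocytes, and an intermediate level can come from a mixture of cells, of alleles or of both, which cannot be told apart here.

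**Figure D1:**
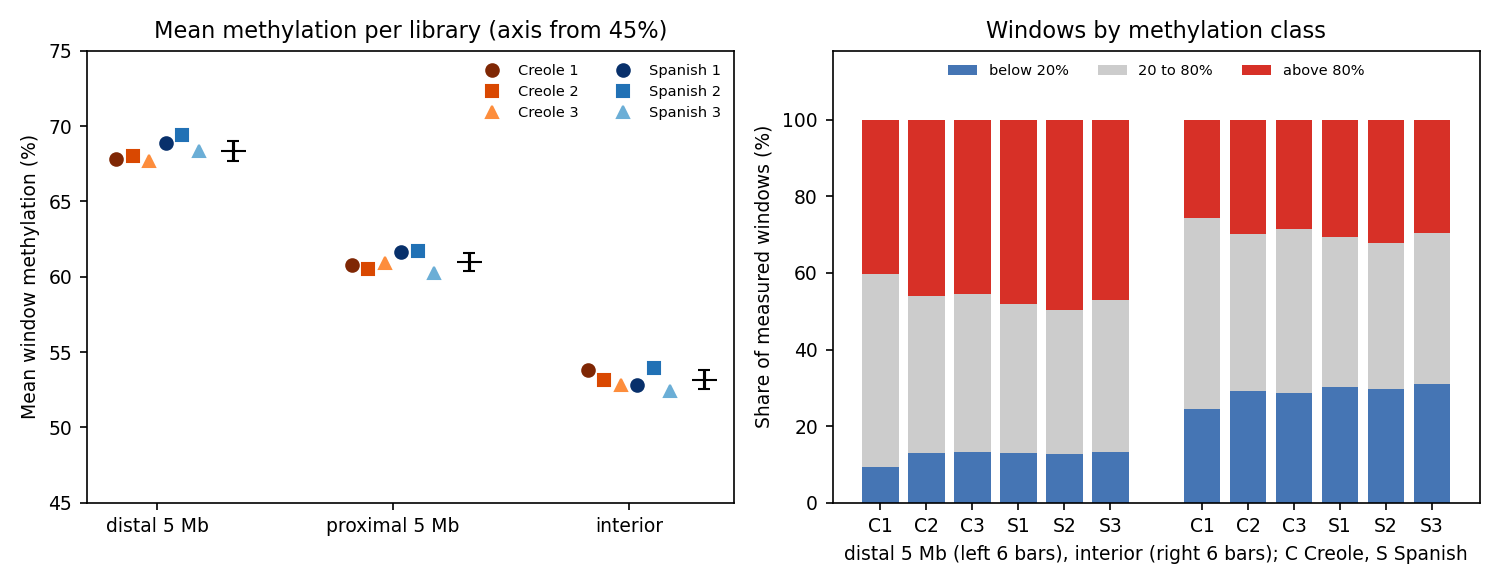
Left, mean methylation of measured 1 kb windows (%) in the distal 5 Mb, the proximal 5 Mb and the interiors, with 1 point per library and the mean and SD of the 6 libraries in black; distal means sit between 67.7% and 69.4% and interior means between 52.4% and 54.0%. Right, the share of measured windows (%) below 20%, from 20 to 80% and above 80% methylation in each library (C1 to C3 Creole, S1 to S3 Spanish), where the lowest class is smaller in the distal bars.

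The proximal ends lay between the distal ends and the interiors. Their mean was 61.0% ± 0.609, so the distal ends were 7.39 ± 0.475 points above them (SD, n = 6), with 6.80 to 8.14 points in single libraries and the same sign in 6 of 6 (exact sign-flip permutation p = 0.031). When windows were weighted by their read calls, the distal ends stood 3.63 points above the proximal ends, while the gap to the interiors was 14.9 points. That gap varied among libraries, from 69.4% distal against 61.0% interior in Creole 1 to 68.9% against 49.3% in Spanish 3.

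Followed inward from the chromosome end, methylation of the distal side was not highest at the very tip. Windows in the last 0.1 Mb had a mean of 66.0% ± 0.680 and the next ones, out to 0.25 Mb, 65.4% ± 0.753 (SD, n = 6). From 0.25 to 0.5 Mb the mean was 70.1% ± 0.736, and it stayed between 69.2% and 70.2% out to 3 Mb. It was 65.9% ± 0.923 from 3 to 4 Mb. On either side of the 5 Mb limit the levels were alike, at 66.0% ± 1.08 from 4 to 5 Mb and 64.7% ± 0.519 from 5 to 6 Mb, so the limit falls within a slope and not at a step. Further in, the mean was 62.1% from 6 to 8 Mb, 57.3% from 10 to 15 Mb, 52.7% from 15 to 20 Mb and 48.8% from 20 to 30 Mb. The bins from 8 to 10 Mb (55.7% to 58% in single libraries) and from 10 to 15 Mb (56.7% to 58.4%) overlapped and cannot be ordered. The chromosomes that contribute to a bin and their number of windows differ from bin to bin.

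**Figure D2:**
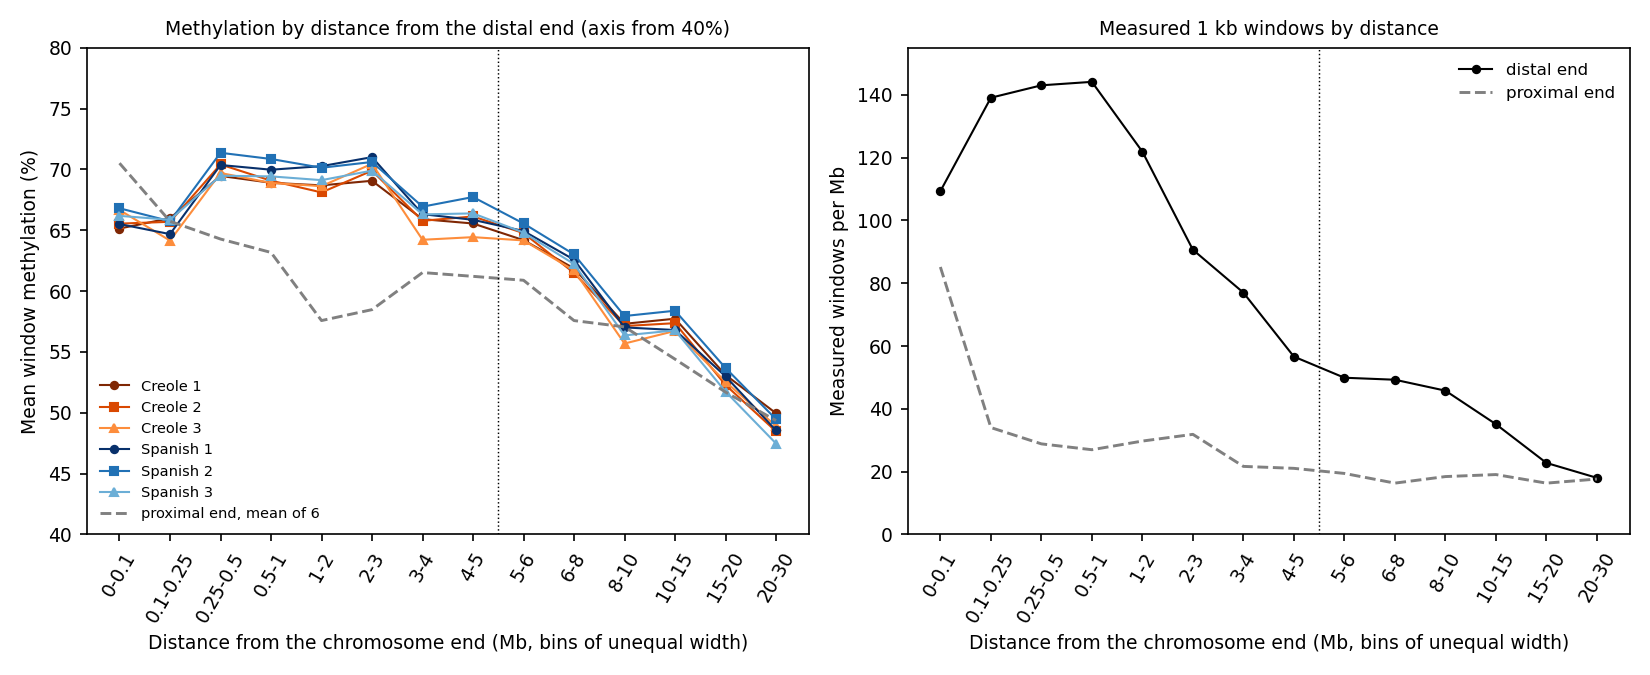
Mean window methylation (%, left) in each library and kept windows per Mb (right) against distance from the chromosome end in Mb, in bins of unequal width; the dotted line is the 5 Mb limit and the grey dashed line the proximal ends (left, mean of 6 libraries). The 6 libraries run together, from near 66% at the tip through 70.1% at 0.25 to 0.5 Mb to 48.8% at 20 to 30 Mb, and windows per Mb go from 144 at 0.5 to 1 Mb to 18 at 20 to 30 Mb.

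The last 1 Mb as a whole was 0.576 ± 0.299 points above the other distal windows (SD, n = 6), with 68.8% against 68.2% and the same sign in 6 of 6 libraries (exact sign-flip permutation p = 0.031). This difference was small beside the SD between libraries of 0.619 points in the last 1 Mb. With possible filled-in cytosines removed it was 0.189 points (exact p = 0.156), in 500 bp windows 0.306 points (exact p = 0.0938), and with a minimum of 5 calls 0.368 points (exact p = 0.0625). Within its first 5 Mb the proximal side had another shape. Its first 0.1 Mb had 70.5% ± 2.31, the level at 1 to 2 Mb was 57.6% ± 1.08, and that at 4 to 5 Mb 61.2% ± 0.698. Further in, the proximal side also fell, to 54.4% ± 0.543 from 10 to 15 Mb and 49.4% ± 0.894 from 20 to 30 Mb. On the distal side the same bins had 57.3% ± 0.668 and 48.8% ± 0.864, so an inward decline was not particular to the distal side.

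Both ends of the range of levels differed. Unmethylated windows, with levels below 20%, were 12.5% ± 1.52 of measured distal windows and 28.9% ± 2.34 of interior windows (SD, n = 6), a difference of -16.5 ± 1.16 points, lower in 6 of 6 libraries (exact sign-flip permutation p = 0.031). Windows above 80% were 46.1% ± 3.20 of distal and 29.4% ± 2.20 of interior windows, a difference of 16.7 ± 1.15 points, higher in 6 of 6 (exact p = 0.031). Windows between these bounds took much the same share in both places, 37.7% to 50.3% of distal and 37.9% to 49.8% of interior windows, with Creole 1 the highest in both. In the distal ends, 868 windows (6.16%) were below 20% in every library that measured them, against 7887 (19.2%) of interior windows. Above 80% in every library that measured them were 2094 distal windows (14.9%) and 3835 interior windows (9.31%).

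The gap between distal ends and interiors was widest where covered CpGs were densest. In interior windows, methylation was lower the more distinct cytosines a window held: 67.3% ± 1.66 with 3 to 10 cytosines, 59.8% ± 0.344 with 21 to 30, 49.0% ± 0.748 with 31 to 50 and 29% ± 1.92 with over 50 (SD, n = 6). Distal windows had 70.6% ± 1.78, 70.6% ± 0.959, 70.3% ± 0.708 and 61.5% ± 0.422 in the same classes. The distal level was thus nearly level up to 50 cytosines. The distal minus interior difference was 3.29 ± 0.746 points in the sparsest class, 10.8 ± 0.801 with 21 to 30 cytosines, 21.2 ± 1.29 with 31 to 50 and 32.5 ± 1.73 with over 50. Each was higher in 6 of 6 libraries (exact sign-flip permutation p = 0.031, also after adjustment over the 5 classes). The difference in the densest class exceeded that in the sparsest by 29.2 ± 1.82 points, from 27.4 to 31.7 in single libraries (exact sign-flip permutation p = 0.031).

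In the windows of over 50 cytosines the distal means were 62.1%, 61.7% and 61.3% in Creole 1 to 3 and 61.7%, 61.4% and 60.8% in Spanish 1 to 3. The interior means of the same class were 30.8%, 29.8% and 31.2%, and 28.4%, 27% and 26.8%. Unmethylated windows were 23.0% ± 2.02 of these dense windows in the distal ends and 60.3% ± 4.2 in the interiors. Dense windows of the proximal ends had 43.6% ± 1.49, so the distal ends were 17.9 ± 1.32 points above them (exact sign-flip permutation p = 0.031). The distal ends held more dense windows, with a median of 32 cytosines per window against 25 in the interiors. With the interior windows reweighted to the distal mix of classes, the overall difference was 17.9 points in place of 15.2. Without Creole 1, the library with the most covered cytosines, the gap in the densest class was 29.9 points. The number of covered cytosines follows coverage as well as CpG content, and the part of coverage in these classes was not tested.

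**Figure D3:**
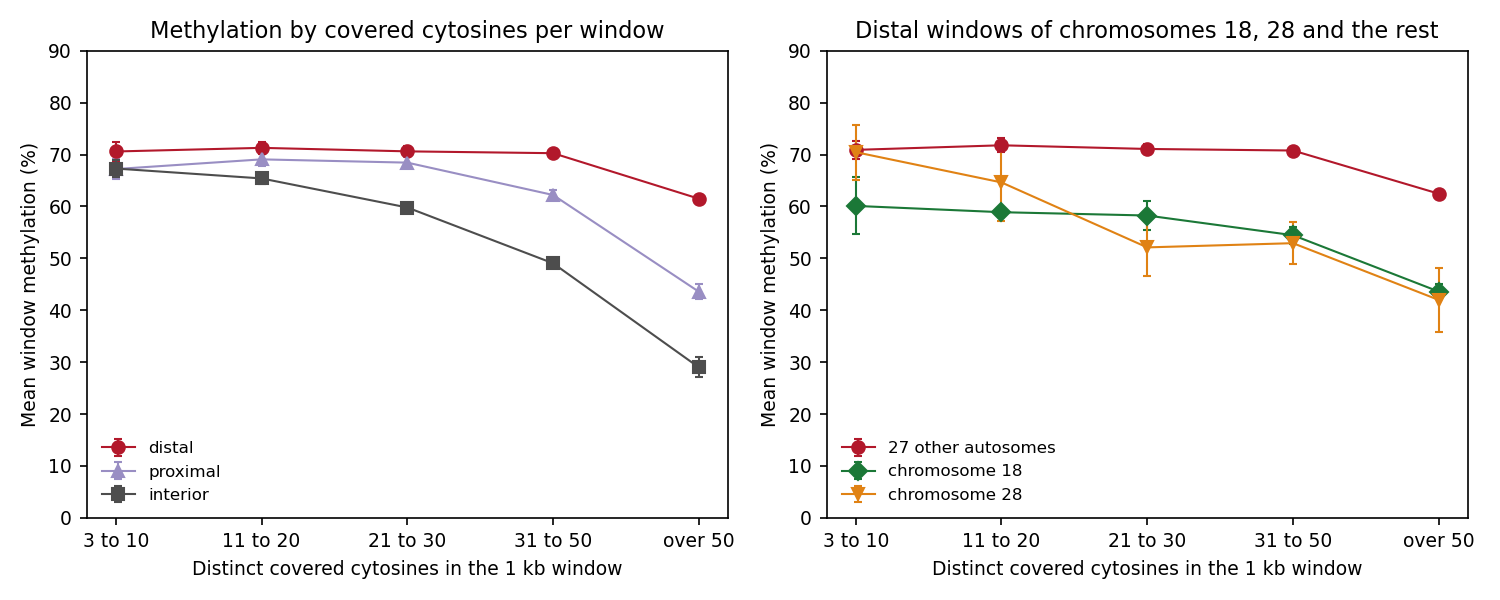
Mean window methylation (%, mean and SD of 6 libraries) against the number of distinct covered cytosines in the 1 kb window. Left, distal, proximal and interior windows, which lie within a few points of each other at 3 to 10 cytosines and at 61.5%, 43.6% and 29% over 50; right, distal windows of chromosomes 18 and 28, at 43.6% and 42.0% over 50, and of the 27 other autosomes, at 62.5%.

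Nearly every autosome had a more methylated distal end. The distal mean was above the interior mean in 6 of 6 libraries on 27 autosomes, below it in 6 of 6 on chromosome 18, and of mixed sign on chromosome 28. By the exact sign-flip permutation test with Benjamini-Hochberg adjustment over the 29 autosomes, 28 were called (96.6% of those tested), all at the smallest p that 6 libraries allow (adjusted p = 0.0324). The widest differences were on chromosome 10 (25.6 ± 1.94 points), chromosome 3 (21.8 ± 2.03), chromosome 7 (21.7 ± 2.6) and chromosome 26 (21.2 ± 1.81; SD, n = 6). Chromosome 10 had the lowest interior mean of all, 44.6% ± 0.933, with a distal mean of 70.3% ± 1.37. The narrowest positive differences were 2.27 points on chromosome 28, 5.99 ± 1.31 on chromosome 27 and 10.1 ± 1.4 on chromosome 25. Chromosome 27 had a distal mean of 70.5% ± 1.58 and the highest interior mean, 64.5% ± 0.913. With a distal interval of 2 Mb its difference was 3.83 points and its call was lost (adjusted exact permutation p = 0.129). Over all 29 autosomes, the SD across chromosomes was 4.31 points for the distal means and 3.56 points for the interior means. Leaving out chromosomes 18 and 28, the distal means of 27 autosomes lay between 65.2% and 73.2%. Their SD across chromosomes was then 2.20 points, against 3.66 points for their interior means. This reversed order rests on leaving out the chromosomes with the lowest distal means, chosen after their values were seen.

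**Figure D4:**
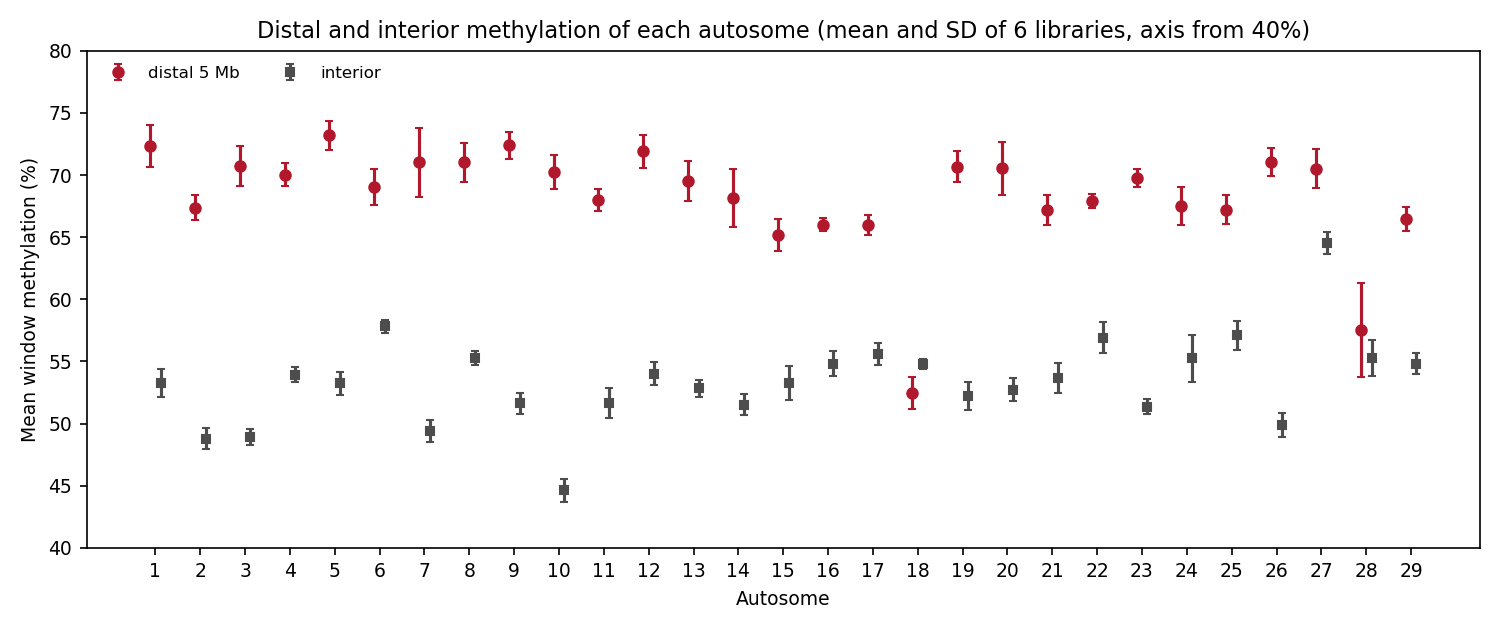
Mean window methylation (%) of the distal 5 Mb (circles) and the interior (squares) of each of the 29 autosomes, with the SD of 6 libraries as error bars. Distal points lie above interior points on 28 autosomes, narrowly on chromosome 28 with 57.5% against 55.3%, while chromosome 18 has 52.5% distal against 54.8% interior.

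The distal end of chromosome 18 was the least methylated of all. Its 406 windows had a mean of 52.5% ± 1.26 against 54.8% ± 0.385 in the interior of the same chromosome, a difference of -2.35 ± 1.09 points that ran from -4.08 in Creole 3 to -1.09 in Creole 1. Windows below 20% were 30.8% of its distal windows and 27.9% of its interior windows, while 76 of the 406 (18.7%) were below 20% in every library that measured them. Along the end, the means by Mb from the tip were 45.9% ± 4.08, 62.0% ± 2.35, 57.0% ± 2.57, 46.8% ± 2.36 and 55.0% ± 6.82, the last from 12 windows. The low levels were thus at the tip and from 3 to 4 Mb, with more methylated DNA between. With a distal interval of 2 Mb the difference was 0.284 points (adjusted exact permutation p = 0.625), and with windows measured in all 6 libraries it was -0.791 points (adjusted exact p = 0.344). At equal numbers of cytosines its distal windows also had lower levels than those of the 27 other autosomes, with 58.9% ± 0.915 against 71.8% ± 1.32 at 11 to 20 cytosines and 43.6% ± 1.53 against 62.5% ± 0.428 over 50. Among the 100 genes nearest in order to NLRP13, a gene of this end, the RefSeq list of the later assembly ARS-UCD2.0 names 17 zinc finger genes and 4 NLRP genes, families that occur in clusters, and 42 genes with only a locus symbol. Whether these clusters bear on the level was not tested.

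Chromosome 28 differed from the others in another way. Its 165 distal windows had a mean of 57.5% ± 3.77, with differences from the interior of 4.21, 1.22 and 7.69 points in Creole 1 to 3 and 3.80, -1.23 and -2.09 points in Spanish 1 to 3 (adjusted exact permutation p = 0.219). The values of the 2 groups overlapped. From the tip inward, the means by Mb were 46.6%, 50.2%, 65.2%, 65.7% and 48.0%, so the outer 2 Mb and the innermost Mb were low. With a distal interval of 2 Mb its difference was -7.14 points (adjusted exact p = 0.0336), and with one of 10 Mb it was 10.6 points. Without chromosome 18 the difference over all autosomes was 15.8 points, and with every autosome weighted equally it was 14.9.

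Most distal windows at either extreme stood alone. The 868 windows below 20% in every library that measured them formed 743 runs of adjacent windows, of which 84.9% were single windows and 10 were 3 windows or longer. In the interiors 82.1% of such runs were single windows. The 2094 distal windows above 80% in every library formed 1933 runs, 22 of them 3 windows or longer. Runs need adjacent kept windows, which are denser in the distal ends, so run lengths were not compared with the interiors. The longest distal run above 80% lay 0.0254 Mb from the covered end of chromosome 11 (107284001 to 107289000, build UMD3.1), where 376 cytosines in 5 windows had a mean of 88.4% and no library fell below 80.2%. The longest unmethylated distal runs were 4 windows each, on chromosome 22 (60015001 to 60019000, mean 3.78%, 393 cytosines), chromosome 25 (41876001 to 41880000, mean 3.67%) and chromosome 16 (78782001 to 78786000, mean 3.26%). Both kinds could lie close together: on chromosome 17 a run at 0.041% (74194001 to 74197000) stood near a run at 94.9% (74209001 to 74212000). On chromosome 18 a run at 94.3% (62377001 to 62380000) lay near one at 0.0608% (62391001 to 62394000). None of these runs overlapped a gene of the authors' deposited table, and an annotation of this build was not used here.

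The 10 densest distal windows that all 6 libraries measured, with 154 to 172 cytosines each, showed both extremes. A window on chromosome 11 (106335001 to 106336000, 156 cytosines) lay between 0.0% and 0.265% in the 6 libraries, from 44 to 3193 calls. A window on chromosome 18 (62379001 to 62380000, 157 cytosines) had 95.3%, 93.6% and 92.3% in Creole 1 to 3 and 93.6%, 96.7% and 93.7% in Spanish 1 to 3, from 26 to 4125 calls. Others set 1 animal apart. On chromosome 25 (39013001 to 39014000, 164 cytosines), Creole 3 had 22.2% and the other 5 libraries 88.4% to 95.2%. On chromosome 9 (103914001 to 103915000, 164 cytosines), Creole 2 had 62.8% and the others 92.5% to 98.3%. On chromosome 21 (67274001 to 67275000, 172 cytosines), Creole 1 had 26.5%, Spanish 1 11.5%, Spanish 2 6.41%, and the other 3 libraries 0.0719% or less. These windows were chosen by their number of cytosines and not by their levels.

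Animals differed from each other more in the distal ends than in the interiors. The mean absolute deviation of a library's window level from the median of the other libraries that measured the window was 12.5 ± 1.03 points in the distal ends and 10.9 ± 0.863 in the interiors (SD, n = 6). The difference was 1.59 ± 0.427 points, with 6 of 6 libraries above 0 (exact sign-flip permutation p = 0.031), and 2.18 points without Creole 1. It was largest where the other libraries had a median below 20%, at 3.57 ± 0.484 points (10.0 against 6.44), and 1.46 ± 0.523 points where that median lay from 20 to 80%. Where the median was 80% or more it was -0.0444 ± 0.406 points, with 4 of 6 libraries above 0 (exact p = 0.875). Windows that were below 20% in 1 library and above 80% in another made up 5.04% of distal windows (710) and 3.76% of interior windows (1548). Reads per cytosine were lower in the distal ends, as given above. Median calls per measured window were higher there in every library, at 128 to 316.5 against 114 to 296 in the interiors. The part of depth in this deviation was not tested beyond a minimum of 50 calls, at which the difference was 1.85 points.

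Between the breed groups, the distal level was slightly lower in the Creole libraries. The 3 Creole libraries averaged 67.8% ± 0.163 and the 3 Spanish ones 68.9% ± 0.501 (SD, n = 3 each). The groups differed by -1.04 points and did not overlap (exact two-sided permutation test, p = 0.10, the smallest that 3 against 3 allow). Interior means, with windows weighted equally, overlapped between the groups. The distal minus interior difference was 14.6 ± 0.506 points in Creole and 15.8 ± 0.354 points in Spanish libraries, apart by -1.21 points (exact permutation p = 0.10). Weighted by read calls, the distal group difference was 0.0798 points in the opposite direction (exact permutation p = 0.90). With that weighting, the distal minus interior difference of the Creole libraries minus that of the Spanish libraries was -5.80 points (exact permutation p = 0.10). Interior levels by read calls did not overlap between groups, with 61.0%, 53.4% and 53.2% in Creole 1 to 3 and 49.4%, 51.2% and 49.3% in Spanish 1 to 3. In the dense windows of over 50 cytosines, the gap to the interiors was 31 points in Creole and 33.9 points in Spanish libraries, with distal levels that overlapped. In these values, too, extraction kit, lane mark and breed group coincide.

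No distal window passed the test between groups. By edgeR's quasi-likelihood test with adjustment over all autosomal windows, 0 of 14089 distal windows were called (0% of all 59286 tested). At an unadjusted p under 0.05 there were 452 distal windows, 3.21% against a background of 3.83% over all autosomal windows, 186 of them higher in Creole and 266 higher in Spanish libraries. Interior windows at that level were split with 1011 higher in Creole and 673 higher in Spanish libraries. With limma, 0 distal windows were called and 663 had an unadjusted p under 0.05, while edgeR's likelihood ratio test called 246. A test on pooled reads, which leaves out the variance between animals, called 9611. The groups did not overlap in 2988 distal windows, 21.2% against a background of 20.8%, with 1145 higher in Creole and 1843 higher in Spanish libraries. Interior windows without overlap had 3992 higher in Creole and 4532 higher in Spanish libraries, and the difference between these splits was not tested. The median absolute difference between group means was 7.51 points in the distal ends and 6.35 in the interiors.

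The 10 distal windows of smallest p in each direction are given as values, since none came near the threshold: the adjusted p was 1 for each in edgeR (quasi-likelihood) and at least 0.809 in limma. In 9 of those higher in Creole, the Spanish libraries were at or near 0% and the Creole libraries partly methylated. On chromosome 12 (87654001 to 87655000, 45 cytosines), Creole 1 to 3 had 18.4%, 49.6% and 14.3%, and Spanish 1 to 3 had 0.0%, 0.0% and 0.0752%. The 48 calls of Spanish 2 allow up to 6.25% there. On chromosome 18 (62095001 to 62096000, 23 cytosines), Creole 1 to 3 had 32.0%, 33.4% and 26.2%, a close set, and Spanish 1 and 3 had 0.0%, with upper limits of 2.94% and 7.32%. On chromosome 19 (63582001 to 63583000, 17 cytosines), the Creole libraries had 59.7%, 59.8% and 40.0%, against 0.0% in Spanish 1 (up to 4%) and 0.478% in Spanish 2.

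The window on chromosome 17 (74092001 to 74093000, 61 cytosines) was read by at least 122 calls in every library. Creole 1 to 3 had 51.6%, 38.6% and 64.5%, and Spanish 1 to 3 had 5.09%, 10.7% and 2.51%, so the group means were 51.6% ± 13.0 and 6.11% ± 4.2 (SD, n = 3 each, unadjusted p = 0.0037 by edgeR's quasi-likelihood test). A low but similar level marked 2 very dense windows: on chromosome 22 (60950001 to 60951000, 121 cytosines) the Creole libraries had 6.54%, 8.45% and 11.1%, and on chromosome 3 (120606001 to 120607000, 83 cytosines) 7.16%, 7.61% and 9.09%. All Spanish libraries had 0.0% in both, from as few as 16 and 10 calls, which allow up to 18.8% and 30%, and the Creole 3 values rest on 45 and 11 calls.

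In 9 of the 10 windows higher in Spanish libraries the picture was the mirror image, with Spanish libraries at or near 100%. On chromosome 4 (118413001 to 118414000, 15 cytosines), Creole 1 to 3 had 55.4%, 60.0% and 60.0% and Spanish 1 and 2 had 100%, with 15 calls in Creole 2 and 36 in Spanish 2. On chromosome 15 (82132001 to 82133000, 15 cytosines), the Creole libraries had 79.5%, 75% and 69.5%, and Spanish 1 and 3 had 100%. A window in the gene listed as LOC508226 on chromosome 21 (69283001 to 69284000, 71 cytosines) had 76.3% and 75.9% in Creole 1 and 2 and 99.9%, 100% and 100% in the Spanish libraries, the last 2 from 19 and 20 calls. The exception was on chromosome 14, 0.145 Mb from the covered end (84503001 to 84504000, 61 cytosines), where the Creole libraries had 0.202%, 0.0% and 0.146% and the Spanish libraries 18.2%, 11% and 52.8%.

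The windows higher in Creole came from 10 chromosomes and those higher in Spanish libraries from 8, with some chromosomes in both sets. Of the 20 windows, 7 lay in the last 1 Mb. The groups did not overlap in any of them, which the choice by smallest p favours. None held a region of the authors' deposited table, and the window higher in Creole that lay in a gene of that table, TNRC18 on chromosome 25, had 10.4% ± 6.81 in Creole (SD, n = 3) and 0.0181% ± 0.0255 in Spanish libraries (SD, n = 2).

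**Figure D5:**
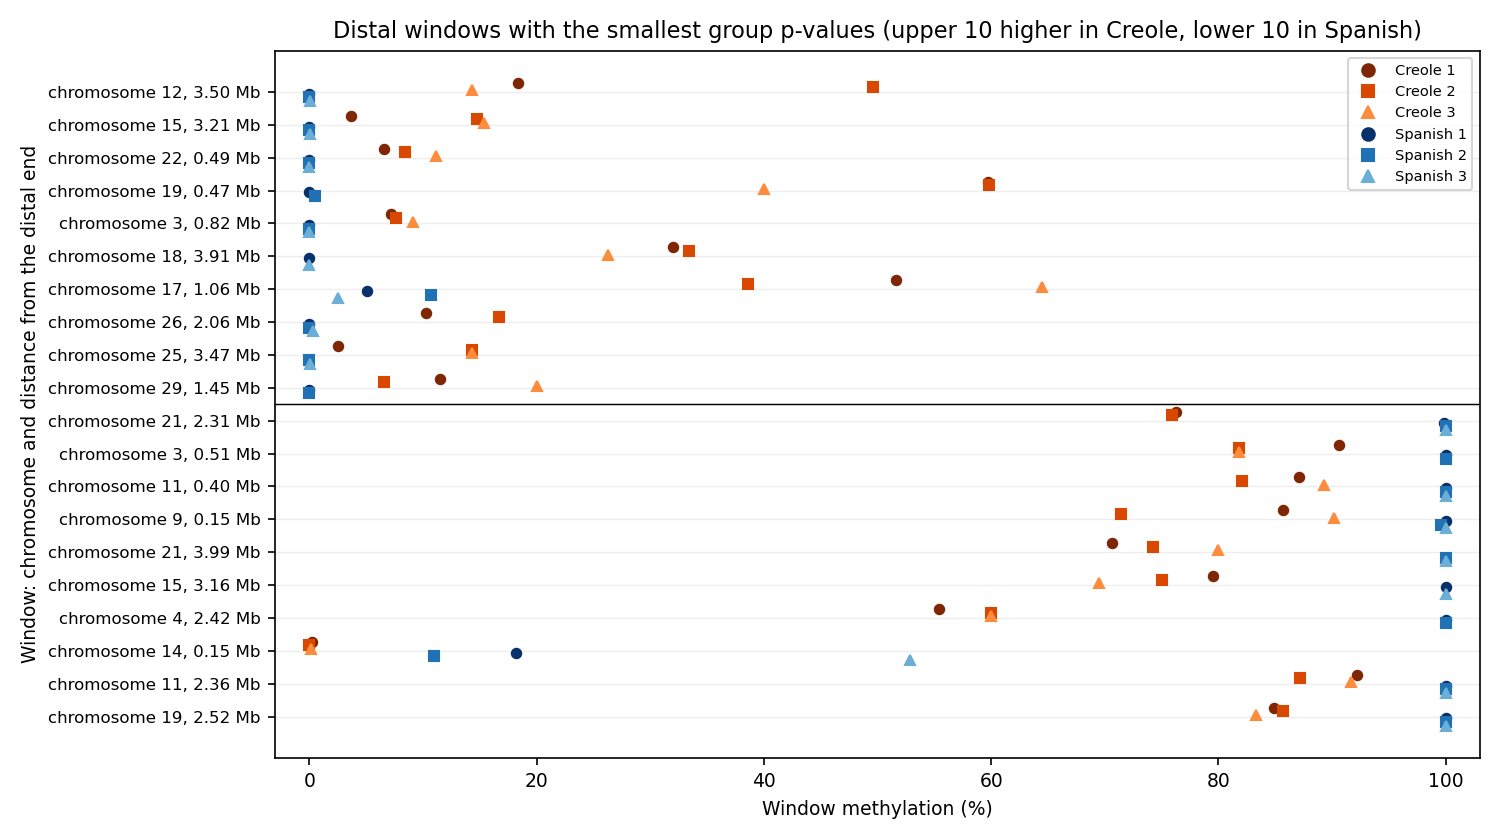
Methylation (%) of the 20 distal windows of smallest p between groups, one row per window named by chromosome and distance from the distal end in Mb, with 1 point per library that measured it. In 9 of the upper 10 rows the Spanish points lie at or near 0%, in 9 of the lower 10 at or near 100%, and the window on chromosome 14 has Creole points at or near 0%.

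Of the regions that the study called differentially methylated, 77 of the 316 autosomal ones (24.4%) lay in the distal ends in the authors' deposited table, close to the distal share of kept windows, and 22 of the 77 in the last 1 Mb. In the authors' deposited table, 41 distal regions were higher in Creole and 36 in Spanish animals, while the interiors held 164 and 54. The core of a CpG island held 11 of the 77 distal regions (14.3%) and 73 of the 218 interior ones (33.5%) in the authors' deposited table. Outside genes lay 52 distal regions in the authors' deposited table, with 14 in introns, 6 in exons, 2 on promoters and 3 on exon boundaries. Recomputed from the read calls, all 77 differed in the listed direction, which is no independent support since the regions were chosen on these libraries. In 39 of the 77, Creole 1 was the single Creole library with at least 10 calls.

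In 14 distal regions, 2 or more libraries of each group had at least 10 calls, and in 6 of these the groups did not overlap. Over all autosomal windows the groups did not overlap in 20.8%. The regions were chosen on these libraries, so the count of 6 is no test of a group difference. At an exon boundary of SMTNL1, a smoothelin-like gene of muscle (chromosome 15, 82117770 to 82117904), Creole 1 and 2 had 98.8% and 94.8%, and Spanish 1 and 2 had 12.5% and 0.0%. The 16 calls of Spanish 1, over 16 CpGs, leave a 95% Wilson interval of 3.5 to 36%. That interval treats the calls as separate and is too narrow if they come from few reads.

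An exonic region of NLRP13, a member of a family of NOD-like receptor genes, went the other way (chromosome 18, 63622104 to 63622197). Creole 1 and 3 had 71.1% and 66.8% there, and Spanish 2 and 3 had 99.3% and 100%. On chromosome 25, a region with no gene assigned (42111798 to 42111860) had 0.0% in Creole 1 and 2 and 66.7%, 96.0% and 65.6% in Spanish 1 to 3, from 42 to 189 calls. On chromosome 5 (117887304 to 117887451, no listed gene), Creole 1 and 2 had 33.3% and 0.0%, and Spanish 2 and 3 had 83.3% each. The region listed as CRLF2 on chromosome 29 was also among the 6. In the other 8 the groups overlapped, among them regions listed as SERPINB1, LOC615183 and 1 of 2 listed as TNRC18.

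Other regions with a large listed difference rested on fewer animals. Near GPR132, a G protein-coupled receptor gene of leukocytes, 2 regions on chromosome 21 had opposite directions in the authors' deposited table, with 95% in Creole and 17% in Spanish animals at 71106518 to 71106619, and 25% and 92% at 71127334 to 71127406. Recomputed, the first had 83.9%, 99.9% and 100% in Creole 1 to 3 and 0.0% in Spanish 2 (95% Wilson interval 0 to 0.606%). The Creole 3 value rests on 15 calls over 15 CpGs. The second, which is named here because of the first and after its values were seen, had 15.3% in Creole 1 (95% Wilson interval 10.0 to 22.7%) and 100% in Spanish 1 and 3. An exonic region of F19A5_BOVIN, a secreted protein gene (chromosome 5, 119524730 to 119524787), was measured in 1 library of each group, with 99.7% in Creole 2 (95% Wilson interval 98.5 to 100%) and 0.0% in Spanish 2 (0 to 1.58%). A region outside EXOC3L4, an exocyst-like gene on chromosome 21 (69388526 to 69388579), had 98.2% in Creole 1 (95% Wilson interval 90.6 to 99.7%) and 16.8% and 0.392% in Spanish 1 and 2. A region outside IQCE, a gene of the primary cilium on chromosome 25 (41178322 to 41178386), had 91.7% and 100% in Creole 1 and 2 and 0.0% in Spanish 1 (95% Wilson interval 0 to 6.42%).

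Among the regions of largest listed difference that were higher in Spanish animals, one outside TMEM179, a transmembrane protein gene on chromosome 21 (70739808 to 70739867), had 0.901% in Creole 1 (95% Wilson interval 0.247 to 3.22%) and 100% in Spanish 2 and 3. An intronic region of TNRC18 on chromosome 25 (39462735 to 39462803) had 8.02% and 0.0% in Creole 1 and 2 and 100% in Spanish 2 (95% Wilson interval 97.1 to 100%). The other deposited region of that gene (39460416 to 39460482) had 100% in all 3 Creole libraries and 0.0% and 100% in Spanish 2 and 3. Outside PRKAR1B, which encodes a regulatory subunit of protein kinase A (chromosome 25, 42507793 to 42507852), Creole 1 had 0.0% (95% Wilson interval 0 to 2.16%), and Spanish 1 to 3 had 100%, 100% (from 14 calls) and 86.2%. A region outside BRAT1, a gene of the DNA damage response on chromosome 25 (41219639 to 41219695), was higher in Creole, with 93.7% and 100% in Creole 1 and 2 and 4.79% in Spanish 1 (95% Wilson interval 3.60 to 6.35%).

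Of 6 gene lists (imprinted domains, developmental transcription factors, chromatin and DNA methylation, telomere and shelterin, leukocyte and innate immunity, extracellular matrix and growth factors), 3 had a distal region matched by name, with 1 gene each, all lower in Creole: KCNQ1 of an imprinted domain, CRLF2 of the leukocyte list and the growth factor gene PDGFA. No gene of the telomere and shelterin, chromatin, or developmental lists was named at a distal region. The match covers only names in the authors' deposited table and not every gene of the distal ends.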

How the data were processed

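Per the labels' protocols, blood DNA cut by MspI had its ends filled in before size selection, bisulfite conversion and PCR. The submitters' processing notes name Trim Galore, Bismark and methylKit, and the build UMD3.1. How duplicates were handled, and with which settings and versions, is not given in the sources used here. The deposited coverage files give for each covered cytosine the count of methylated and of unmethylated calls, with strands apart, and the percent between them, which was recomputed here from the counts. The authors' deposited table of regions gives group mean methylation as a fraction (printed as percent), their difference, and a score that was not used. It holds 0 columns of other samples.

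The members and the gene lists were chosen with earlier results of these data known. Window levels are methylated over all calls of a window, and means weight windows equally. Differences within a library were tested by an exact sign-flip permutation test over 6 libraries, groups by an exact permutation test, and single windows by edgeR 4.0.16 in R 4.3.3, whose quasi-likelihood F test took both counts of a window with a term for each library (Benjamini-Hochberg adjustment over 59286 windows, threshold 0.05), with limma 3.58.1 (log2 ratios, 2 added to each count) and 2 other tests as alternatives. Positions that could carry filled-in cytosines, inferred as the inner strand of the outermost CpG of covered stretches set apart by gaps over 100 bp, were removed in an alternative (5.00% of records). Scripts were tested on simulated data. Named are, for each direction, the 10 distal windows with the smallest p, then the 4 autosomes with the highest and the 4 with the lowest difference, deposited distal regions with at least 10 calls in 2 libraries of each group, the 8 named genes of largest listed difference, and members of 6 gene lists. A region that this rule names is not reported here. Locations of genes come from the authors' deposited table, and RefSeq (ARS-UCD2.0) was used for names and order only. Sequences were not printed, since no genome of this build was used. Groups follow the breed labels, and p-values measure the spread between these animals. The remaining tables were made with Python 3.11.15, numpy 2.4.6, pandas 2.3.3, scipy 1.17.1 and matplotlib 3.10.9.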

Additional observations from a re-analysis of the deposited data

How the results depend on the processing

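Of 96 recomputed values of the main comparisons under other settings than leaving out a library, 89 kept direction and side of the threshold or, for counts of calls, a similar count. The exact comparisons between groups could keep or change direction only, since they allow no p under 0.10. The exceptions are as follows, and the cause was not tested. The difference of the last 1 Mb from the other distal windows was 0.368 points with a read minimum of 5, 0.306 points in 500 bp windows and 0.189 points with possible filled-in positions removed. Weighted by read calls, the group difference in the distal level was 0.0798 points. The group difference in the distal minus interior difference was -5.80 points with that weighting, larger in size but of the same direction and side of the threshold. The distal minus interior deviation between animals was -0.0444 points in windows whose other libraries had a median of 80% or more. Counts of distal windows called between groups were 246 with the likelihood ratio test and 9611 with pooled reads without variance between animals. These were 1.75% and 68.2% of distal windows, against 2.22% and 65.1% of interior windows. On single chromosomes the difference was 0.284 points for chromosome 18 and -7.14 points for chromosome 28 with a distal interval of 2 Mb. The 20 named windows passed edgeR's likelihood ratio test and not limma.

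Leaving out each library in turn, with windows chosen anew, ends every exact call by construction, since 5 libraries allow no p under 0.0625, so that the 28 chromosome calls became 0 to 0. The difference from the interiors was then 15.5 to 16.9 points, from the proximal ends 7.10 to 8.14 points, of the last 1 Mb 0.384 to 0.829 points, and in windows of over 50 cytosines 29.9 to 32.3 points. The share of windows below 20% differed by -18.2 to -16.6 points and that above 80% by 17.1 to 18.5 points. The log2 ratio of covered cytosines per Mb was 2.26 to 2.31, that of reads per cytosine -0.31 to -0.22, and the deviation between animals 1.54 to 2.18 points. The group difference of the distal level was -1.51 to -0.645 points, that of the distal minus interior difference -1.64 to -0.599 points, and 0 distal windows were called in each case.

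No paired analysis was possible because the labels number replicates only within a breed and tie no Creole animal to a Spanish one. Depth limits single windows more than means: windows with 10 to 50 calls in a library cannot tell a level of 0% from one of several percent. Extraction kit, lane mark and group coincide. Breeds of 1 animal each leave breed and animal inseparable, and the cell makeup of the blood was not measured.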
